A study of Mus musculus with 30 samples.

Results

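Sp1 and Sp3 are not the only ubiquitous proteins that bind CpG island promoters, and the genes of 10 other such factors were followed here through blood specification in wild-type (WT), Sp1 mutant and Sp3 mutant cells. The genes were Nfya, Nfyb, Nfyc, Yy1, Nrf1, Gabpa, Hcfc1, E2f1, E2f4 and Zbtb7a. The set was chosen with earlier results of these data known, its members were matched by symbol alone, and 10 of 10 were among the 14685 genes of the table and above 1 FPKM (fragments mapped to a gene, scaled by transcript length and library size) in at least 1 sample.

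CpG islands are stretches rich in unmethylated CpG dinucleotides that cover the start sites of most housekeeping genes and of many regulators. Their promoters often lack a TATA box and are instead bound by broadly expressed factors with short recognition motifs. NF-Y, a trimer of the NFYA, NFYB and NFYC proteins, binds the CCAAT box. NRF1 and the ETS factor GABPA bind promoters of nuclear genes for mitochondrial proteins, among others, and YY1 binds close to start sites and is also known as a looping factor. HCFC1 is a co-regulator without a DNA-binding domain that is tethered by promoter-bound factors and brings in histone-modifying enzymes. E2F1 is a cell cycle activator, E2F4 acts mainly as a repressor together with pocket proteins in non-dividing cells, and ZBTB7A (LRF) is a zinc finger repressor known in blood for its part in fetal globin silencing and lineage choice.

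The promoters of these genes are themselves rich in GC and CpG, and 3 of them are printed here because their genes differed between mutant and WT cells and lie outside annotated exons over the stretch shown. RefSeq windows of the 250 bases before the start (build GRCm38.p6) were found for 9 of the 10 genes, and E2f4 is named only. Where a gene had several windows, the first listed was taken. The Yy1, Gabpa and E2f1 windows lie wholly (250 of 250 bases) and the Nfya window in part (143 bases) within exons of the GENCODE annotation. The Zbtb7a and Nfyc windows lie outside exons but inside their own genes as GENCODE bounds them, so the start they precede is not the outermost one. In the sequences, given 5′ to 3′ on the strand of the gene, capitals mark GC boxes, the motif of Sp1 and Sp3 (GGGCGG or CCGCCC), and the 3 bases of Nfyb that lie in an exon were left out.
Zbtb7a, chr10:81136021-81136270, plus strand: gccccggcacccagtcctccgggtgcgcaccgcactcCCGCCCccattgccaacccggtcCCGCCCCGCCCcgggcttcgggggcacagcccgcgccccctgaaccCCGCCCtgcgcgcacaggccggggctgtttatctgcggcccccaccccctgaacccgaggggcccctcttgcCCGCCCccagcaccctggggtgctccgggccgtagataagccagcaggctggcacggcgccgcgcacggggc
Nfyc, chr4:120825742-120825991, minus strand: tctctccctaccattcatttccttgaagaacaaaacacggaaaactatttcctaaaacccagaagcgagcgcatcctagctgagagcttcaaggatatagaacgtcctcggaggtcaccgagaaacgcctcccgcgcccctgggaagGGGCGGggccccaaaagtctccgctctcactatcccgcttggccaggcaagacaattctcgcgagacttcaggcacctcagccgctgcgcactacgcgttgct
Nfyb, chr10:82764145-82764391, minus strand: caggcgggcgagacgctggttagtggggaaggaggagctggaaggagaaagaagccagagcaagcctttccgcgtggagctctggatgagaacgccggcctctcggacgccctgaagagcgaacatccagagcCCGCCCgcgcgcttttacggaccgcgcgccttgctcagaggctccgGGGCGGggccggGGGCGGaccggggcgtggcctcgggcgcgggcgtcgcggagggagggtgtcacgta

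A GC box was present in 8 of the 9 windows, against 32.7% of all 32851 RefSeq windows of this length, and its absence from the Gabpa window says only that these letters are not there. The share of all windows was not matched for GC content, which was 56% to 81.2% in the 9 and 52.4% at the median of all. The Yy1 window held 6 GC boxes, Zbtb7a 5, E2f1 4, Nfyb 3, Nrf1 2, and Nfya, Nfyc and Hcfc1 1 each, with overlapping matches counted separately. Each of the 5 windows that lie outside exons or nearly so (Nfyb, Nfyc, Nrf1, Hcfc1 and Zbtb7a) held at least 1. The CCAAT box of NF-Y (CCAAT or ATTGG, in 33.8% of all windows) was in 0 of the 9, and an E2F site (TTTGGCGC or TTTCCCGC on either strand, 1.3% of all windows) was also in 0. The ETS core CCGGAAG (either strand, 6.91% of all windows) and the YY1 core AAGATGGC (either strand, 1.56%) were both found in the Gabpa and Hcfc1 windows. The NRF1 core TGCGCA, which reads the same on both strands (6.43% of all windows), was in the Nfya, Nfyc and Zbtb7a windows. The ratio of observed to expected CpG lay between 0.719 for Zbtb7a and 1.15 for E2f1, above the median of all windows (0.373) in each of the 9.

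**Figure D1:**
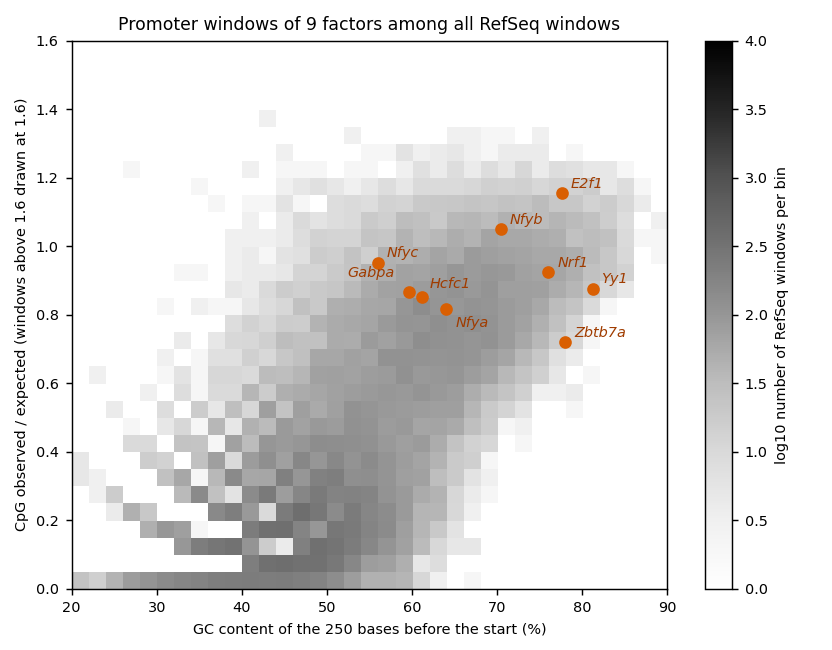
GC content in percent (x axis) and observed over expected CpG (y axis) of the 250 bases before the start, for 9 factors (orange points) over a grey map of all 32851 RefSeq windows (log10 number per bin). The 9 points lie at 56% GC (Nfyc) to 81.2% GC (Yy1), to the right of the median of all windows at 52.4%.

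The cells were of the mouse E14 embryonic stem cell (ESC) line, unmodified (WT), homozygous for an Sp1 allele without its DNA-binding domain (Sp1ΔDBD/ΔDBD, labelled Sp1_deltaDBD) or carrying an Sp3 knockout (Sp3-/-, labelled Sp3KO). Total RNA was sequenced from ESC, from Flk1+ cells taken from embryoid bodies on magnetic columns, and from 3 populations sorted on day 2 of blast culture: early hemogenic endothelium (HE1, KIT+ CD41- Tie2+), late hemogenic endothelium (HE2, KIT+ CD41+ Tie2+) and progenitors (KIT+ CD41+ Tie2-). Each of the 15 combinations had 2 replicates, so that 30 samples were measured. The truncated Sp1 protein of the mutant is described by the study as partly active, and the labels do not say how many lines of each mutant were used, so a difference between mutant and WT cannot be told apart from one between lines. The study describes its replicates as biological without saying what set them apart (culture, sort or day), and p-values measure the spread between these samples.

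Markers of each sorted population were where the labels put them. The summed FPKM of Pou5f1, Nanog, Zfp42 and Esrrb was 979 to 1260 in ESC and at most 96.7 in other samples, that of Tek, Cdh5, Pecam1 and Kit was highest in HE1 (699 to 1085) and that of Itga2b, Runx1, Gata1 and Gfi1b in progenitors (194 to 315). Kdr, Etv2, Mesp1 and T summed to 294 to 538 in Flk1+ cells, which overlapped with HE1 (212 to 361). The erythroid sum (Hbb-bh1, Hba-x and Klf1) was 1455 to 13110 in progenitors, and the macrophage sum (Ptprc, Csf1r and Cd68) stayed between 2.21 and 14.7 in all samples. Replicate 1 of WT HE1 held the highest sums of cardiac and smooth muscle genes (Myl7, Tnnt2, Acta2 and Tagln, 1662, against 354 in replicate 2) and of fibroblast genes (4 of 5 measured, 193 against 29.0). Sp3 was 3.38 to 7.79 FPKM in Sp3-/- and 25.9 to 58.1 FPKM in WT samples. Sp1 was 14.8 to 40.5 FPKM in Sp1ΔDBD/ΔDBD and 24.9 to 52.4 FPKM in WT samples, and a value over the whole gene does not show whether the exons of the DNA-binding domain are missing.

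The 10 genes were expressed in all 30 samples, at levels that differed between genes more than between groups. Per length, Hcfc1 (median 58.8 FPKM, 38.9 to 88.3) and E2f4 (60.3, 38.6 to 105) were the highest, higher than 92.3% and 92.9% of all genes by mean. Yy1 (29.4, 22.3 to 45.6), Nfyc (28.1, 18.3 to 37.2), Gabpa (23.2, 15.4 to 39.5), Nrf1 (21.7, 14.3 to 28.9) and Nfyb (18, 11.5 to 32.6) followed with overlapping ranges. Nfya (9.85, 6.86 to 18.1), E2f1 (8.04, 3.36 to 12.8) and Zbtb7a (4.5, 2.18 to 7.15) were the lowest. NF-Y is a trimer, yet the transcripts of its subunits stood in the order Nfyc, Nfyb, Nfya in 14 of the 15 groups by mean. A level in a bulk sample does not tell fewer expressing cells from less RNA per cell.

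**Figure D2:**
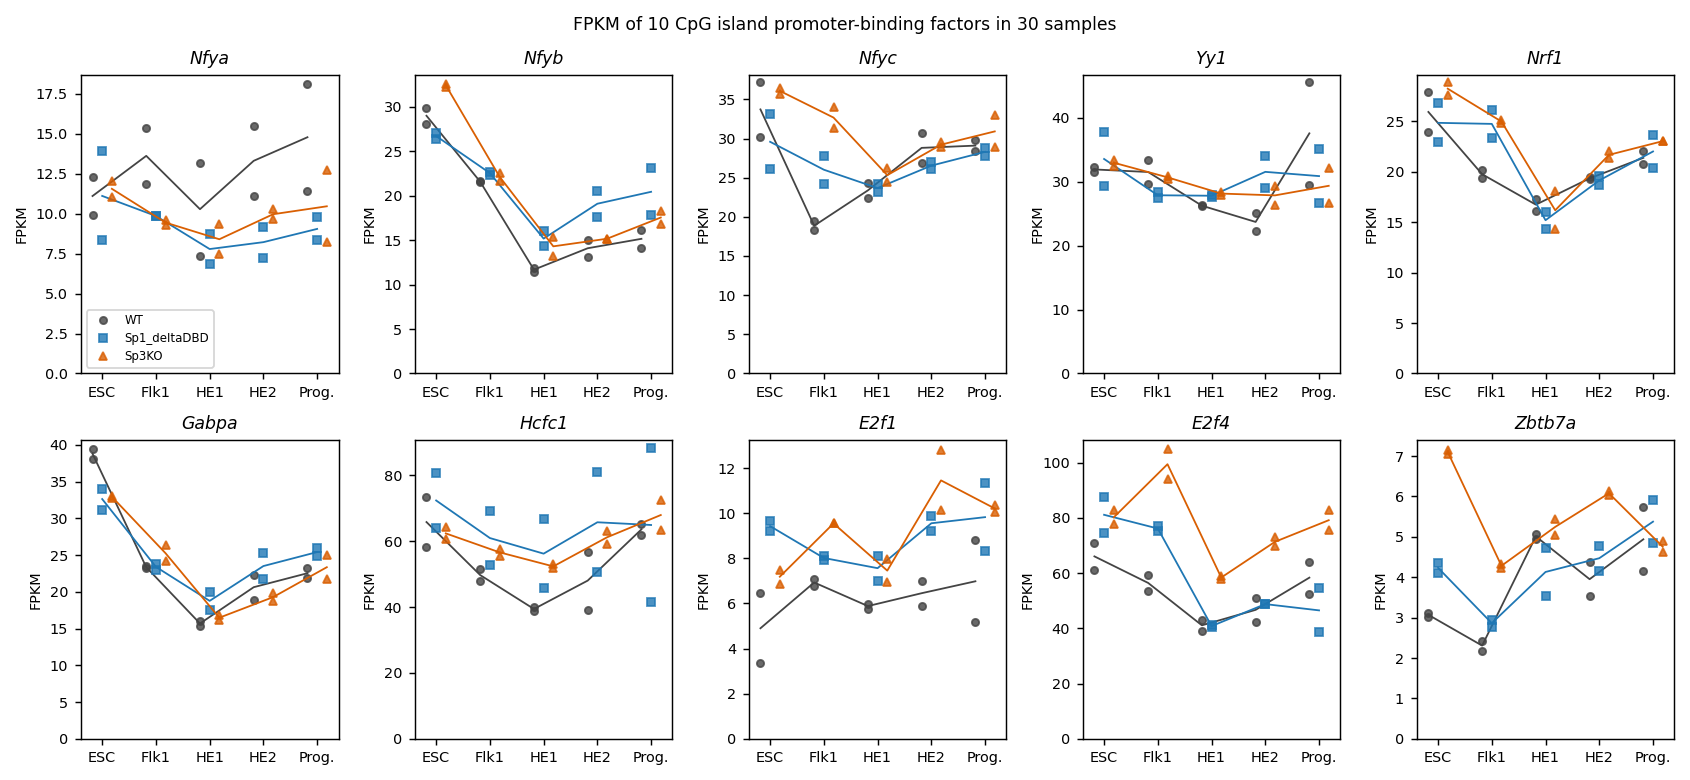
FPKM (y axis, from 0) of the 10 genes in ESC, Flk1+, HE1, HE2 and progenitor samples (x axis). Each point is 1 sample, lines join the means of 2 replicates, and colour and shape give the genotype. Zbtb7a is highest in Sp3-/- ESC (7.15 and 7.05 FPKM), E2f4 in Sp3-/- Flk1+ cells (105 and 94.0 FPKM), and Gabpa and Nfyb fall from ESC to HE1 in all genotypes.

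The first question was how the factors vary along normal differentiation. In WT cells the ratio between the highest and lowest population mean was 1.42 (E2f1) to 2.47 (Nfyb), and 8 of the 10 genes were below the median ratio of 2.23 over the 10052 genes with a mean above 3 FPKM. Differences between consecutive populations were tested with limma on log2(FPKM + 0.1) over all genes, and a gene was called where its Benjamini-Hochberg adjusted p was below 0.05. From ESC to Flk1+ cells 4 of 10 genes were called, all lower, against 52.2% of all 14525 genes tested. From Flk1+ cells to HE1, 5 of 10 were called, 3 lower and 2 higher, against 53.0%. From HE1 to HE2 (21.9% of all genes) and from HE2 to progenitors (13.2%) 1 of 10 was called, higher, at each step. These shares were at or below those of all genes. With each sample corrected for GC content and gene length, 6, 6, 2 and 1 of 10 were called at the 4 steps, against 56.7%, 55.2%, 23.0% and 17.2% of all genes, which makes 15 calls in place of 11.

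Gabpa (chr16:84834925-84863779, plus strand) was lowest in HE1. It was 38.1 and 39.5 FPKM in WT ESC, 23.2 and 23.5 in Flk1+ cells, 15.4 and 16 in HE1. HE2 samples had 22.3 and 18.9 FPKM and progenitors 23.2 and 21.8. The level thus fell at the first and second steps, by 0.73 ± 0.11 (log2 fold change ± SE, adjusted p = 1.17e-05 in limma) and 0.57 ± 0.11 (adjusted p = 0.000176), and rose by 0.39 ± 0.11 from HE1 to HE2 (adjusted p = 0.0139). The last call was lost when WT HE1 replicate 1 (adjusted p = 0.0863) or WT HE2 replicate 1 (adjusted p = 0.161) was left out. Of the summed exon length of Gabpa, 397 bases are shared with Atp5j on the opposite strand, and the study names default parameters for the aligner and the quantifier, which set no strand option, so that unspliced reads of that stretch cannot be assigned to 1 of the genes.

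The NF-Y subunits had their WT minima in different populations. Nfyb (chr10:82748701-82764144, minus strand) was 28.1 and 29.9 FPKM in WT ESC, 21.5 and 21.6 in Flk1+ cells and 11.9 and 11.5 in HE1. It fell by 0.42 ± 0.12 (adjusted p = 0.00714) and then by 0.88 ± 0.12 (adjusted p = 7.73e-06), and the first call was lost without WT ESC replicate 2 (adjusted p = 0.0562). Nfyc (chr4:120757438-120831572, minus strand) had its lowest WT level in Flk1+ cells instead, with 30.2 and 37.2 FPKM in ESC, 19.4 and 18.3 in Flk1+ cells and 22.4 and 24.4 in HE1. It fell by 0.83 ± 0.12 at the first step (adjusted p = 1.26e-05) and rose by 0.31 ± 0.12 at the second (adjusted p = 0.0405). That rise was called in none of the fits that left out 1 of its 4 samples, with adjusted p = 0.0738 and 0.177 without Flk1+ replicate 1 and 2, and 0.0552 and 0.201 without HE1 replicate 1 and 2. Nfya (chr17:48386885-48409906, minus strand), the subunit that makes the sequence-specific contacts, was called at none of the 4 steps, with WT means between 10.3 ± 4.13 (SD, n = 2) in HE1 and 14.8 ± 4.75 FPKM in progenitors. Its change from Flk1+ cells to HE1 was -0.45 (adjusted p = 0.209) and became a call without WT HE1 replicate 1 (-0.87, adjusted p = 0.0374). The Nfyc rise to HE1 was also lost after the GC and length correction (0.28, adjusted p = 0.0532).

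Zbtb7a (chr10:81135220-81152995, plus strand) rose where most of the others fell. It was 3.13 and 3.01 FPKM in WT ESC, 2.18 and 2.43 in Flk1+ cells and 4.94 and 5.08 in HE1, and the second step was a rise of 1.09 ± 0.18 (adjusted p = 4.17e-05), the largest of the 40 differences between consecutive WT populations. It was called in each of the 30 fits without 1 sample, WT HE1 replicate 1 with its high muscle and fibroblast sums included. Over these fits and the other alternatives its log2 fold change lay between 0.81 and 1.16. Nrf1 (chr6:30047988-30153458, plus strand) was 23.9 and 28.0 FPKM in ESC and 19.4 and 20.2 in Flk1+ cells, a fall of 0.39 ± 0.12 (adjusted p = 0.0105) that was lost without ESC replicate 2 (adjusted p = 0.134) or Flk1+ replicate 1 (adjusted p = 0.0641). E2f4 (chr8:105297663-105305370, plus strand) fell by 0.46 ± 0.14 from Flk1+ cells (59.4 and 53.5 FPKM) to HE1 (43.1 and 39.1; adjusted p = 0.0103), lost without Flk1+ replicate 1 (0.0882) or HE1 replicate 2 (0.0811). Yy1 (chr12:108792973-108820148, plus strand) rose by 0.63 ± 0.17 from HE2 (22.3 and 25.1 FPKM) to progenitors (45.6 and 29.5; adjusted p = 0.0148). The Yy1 progenitor samples stood far apart, and the call was lost without progenitor replicate 1 (log2 fold change 0.32, adjusted p = 0.313) or HE2 replicate 1 (0.54, adjusted p = 0.123). Hcfc1 (chrX:73942792-73966357, minus strand) and E2f1 (chr2:154559407-154569892, minus strand) were called at no step of the uncorrected fit. After the GC and length correction Hcfc1 fell from ESC to Flk1+ cells (-0.76, adjusted p = 0.00265, against -0.40 uncorrected) and to HE1 (-0.63, adjusted p = 0.0102, against -0.33), and rose to HE2 (0.59, adjusted p = 0.0360, against 0.26). The same correction added a fall of Zbtb7a from ESC to Flk1+ cells (-0.83, adjusted p = 0.000451, against -0.40) and of Yy1 from Flk1+ cells to HE1 (-0.47, adjusted p = 0.0105, against -0.26). E2f1 was higher by 0.56 in Flk1+ cells than in ESC (adjusted p = 0.0608), and by 1.02 (adjusted p = 0.00241) without WT ESC replicate 2.

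The second question was whether the genes of other promoter factors change when Sp3 is absent. Against WT, 8 of 50 differences were called in Sp3-/- cells, all of them higher, in 4 genes: Zbtb7a, E2f4, Nfyc and E2f1. By population this was 1 of 10 genes in ESC (11.3% of all genes tested), 3 in Flk1+ cells (12.6%), 1 in HE1 (10.9%), 3 in HE2 (13.8%) and 0 in progenitors (8.65%; 2 of 10 at an unadjusted p below 0.05). Pooled, this was 16% of the tests on these genes and 11.5% of the tests on all genes. Their median log2 fold change was 0.12, 0.26, 0.11, 0.20 and 0.09 in that order, beside -0.02, 0.00, 0.05, 0.03 and 0.04 for all genes.

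Zbtb7a had the largest difference. In ESC it was 7.15 and 7.05 FPKM in Sp3-/- against 3.13 and 3.01 in WT samples, and in Flk1+ cells 4.23 and 4.34 against 2.18 and 2.43. In HE2 it was 6.03 and 6.13 against 3.54 and 4.37. The groups did not overlap in any of these populations, and the log2 fold changes were 1.18 ± 0.18 (adjusted p = 0.000422), 0.87 ± 0.18 (adjusted p = 0.00377) and 0.62 ± 0.18 (adjusted p = 0.0268). In HE1 (5.45 and 5.04 against 4.94 and 5.08 FPKM) and progenitors (4.89 and 4.63 against 4.14 and 5.74) the groups overlapped, with 95% intervals of the log2 fold change from -0.31 to 0.44 and from -0.41 to 0.34. With only the 4 samples of a comparison in the limma fit, the ESC and HE2 calls were lost (adjusted p = 0.0547 and 0.190) and the Flk1+ call was not. The HE2 call was lost without WT HE2 replicate 1 (log2 fold change 0.47, adjusted p = 0.231), Sp3-/- HE2 replicate 1 (0.63, adjusted p = 0.0956) or Sp3-/- HE2 replicate 2 (0.60, adjusted p = 0.130), and after correction for GC content and gene length (0.43, adjusted p = 0.108). In ESC the summed ESC markers were 979 to 996 FPKM in Sp3-/- and 1215 to 1260 in WT samples. In HE2 the endothelial markers were 351 to 352 FPKM in Sp3-/- and 489 to 559 in WT samples and the mesoderm markers 109 to 120 and 135 to 184, without overlap, and the part of these differences in the ESC and HE2 results of Zbtb7a and the other genes and lists was not tested.

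E2f4 was higher in Sp3-/- cells of the 3 middle populations. In Flk1+ cells it was 105 and 94.0 FPKM against 59.4 and 53.5 in WT, which is the highest level of this gene in any sample of the series. In HE1 it was 58.8 and 58.0 against 43.1 and 39.1 FPKM. The HE2 samples had 72.9 and 69.8 against 42.3 and 51.1 FPKM. The log2 fold changes were 0.82 ± 0.14 (adjusted p = 0.00128), 0.51 ± 0.14 (adjusted p = 0.0253) and 0.62 ± 0.14 (adjusted p = 0.00749), and no Sp3-/- sample overlapped with WT. In progenitors (75.6 and 82.7 against 64.1 and 52.6 FPKM) and ESC (82.7 and 77.7 against 61.2 and 71.0 FPKM) the samples did not overlap either, but the differences of 0.44 ± 0.14 (adjusted p = 0.0555) and 0.28 ± 0.14 (adjusted p = 0.220) were not called. With only the 4 samples of a comparison in the limma fit, the HE1 and HE2 calls were lost (adjusted p = 0.0680 and 0.0875) and the Flk1+ call was not. The progenitor difference became a call in 5 of the 30 fits without 1 sample, those without WT HE2 replicate 1 or 2 (0.0493 and 0.0494), WT progenitor replicate 1 (0.59, adjusted p = 0.0478) or Sp1ΔDBD/ΔDBD progenitor replicate 1 or 2 (0.0221 and 0.0222). The HE1 call was lost in each fit without 1 of its 4 samples, with adjusted p = 0.0685 and 0.134 without WT replicate 1 and 2, and 0.116 and 0.126 without Sp3-/- replicate 1 and 2. The HE2 call was lost without WT replicate 1 (0.113) or Sp3-/- replicate 1 (0.0535).

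Nfyc was called in 1 population. In Flk1+ cells, where WT had its lowest level (19.4 and 18.3 FPKM), the Sp3-/- samples had 34.0 and 31.4 FPKM, a log2 fold change of 0.79 ± 0.12 (adjusted p = 0.000592). In Flk1+ cells the summed mesoderm markers were 497 to 538 FPKM in Sp3-/- and 297 to 317 in WT samples and the ESC markers 93.9 to 96.7 and 31.8 to 40.9, whose part in the Flk1+ results was not tested. In the 4 other populations the log2 fold change was 0.02 to 0.11 and was not called. E2f1 was 10.1 and 12.8 FPKM in Sp3-/- HE2 against 5.90 and 7.02 in WT, a log2 fold change of 0.81 ± 0.24 (adjusted p = 0.0327). Its mean was higher in Sp3-/- cells in the other populations too, by 0.33 to 0.61, without a call. Without WT ESC replicate 2 the ESC difference was 1.07 instead of 0.61 and called (adjusted p = 0.0126), and without WT progenitor replicate 2 that of progenitors was 0.97 instead of 0.59 and called (adjusted p = 0.0405). With only the 4 samples of a comparison in the limma fit, the Flk1+ difference of 0.46 was called (adjusted p = 0.0403) and the HE2 difference was not (adjusted p = 0.115). The HE2 call was lost without WT replicate 1 (0.69, adjusted p = 0.214), Sp3-/- replicate 1 (0.98, adjusted p = 0.0561) or Sp3-/- replicate 2 (0.65, adjusted p = 0.229), and after the GC and length correction (0.53, adjusted p = 0.153).

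GC content moved with the mutant comparisons over all genes, in both mutants. Over 10013 genes, which share libraries, Spearman's rho between the log2 fold change and the GC content of a transcript was 0.536 in ESC, 0.417 in Flk1+ cells, 0.153 in HE1, 0.392 in HE2 and 0.145 in progenitors for Sp3-/-. For Sp1ΔDBD/ΔDBD it was 0.257, 0.0100, -0.309, -0.179 and -0.375 in the same order. The transcripts of E2f1 (58.3% GC), Zbtb7a (57.4%) and E2f4 (56.1%) are richer in GC than 91.0%, 87.8% and 82.1% of genes, and those of Gabpa (41.4%) and Nfyb (42.6%) than 9.91% and 14.3%. With each sample corrected for GC content and gene length, Zbtb7a was still called in ESC (log2 fold change 0.96) and Flk1+ cells (0.70), E2f4 in Flk1+ cells, HE1 and HE2 (0.66, 0.49 and 0.51), and Nfyc in Flk1+ cells (0.76). The corrected fit called 12 of 50 differences (24%, against 11.7% of the tests on all genes in that fit), the 6 added ones being Nfyb in ESC, HE1 and HE2, Nrf1 in Flk1+ cells and HE2 and Gabpa in Flk1+ cells, all higher than WT (0.33 to 0.46). By population these were 2, 5, 2, 3 and 0 of 10 genes, against 7.44%, 12%, 14.6%, 13.2% and 11.4% of all genes. In Sp1ΔDBD/ΔDBD cells it called 2 of 50 (4%, against 9.84% of the tests on all genes), E2f1 in ESC and Nfyc in Flk1+ cells. Corrected values are not given for the lists of partners, targets and further factors described below, whose results are from the uncorrected fit.

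**Figure D3:**
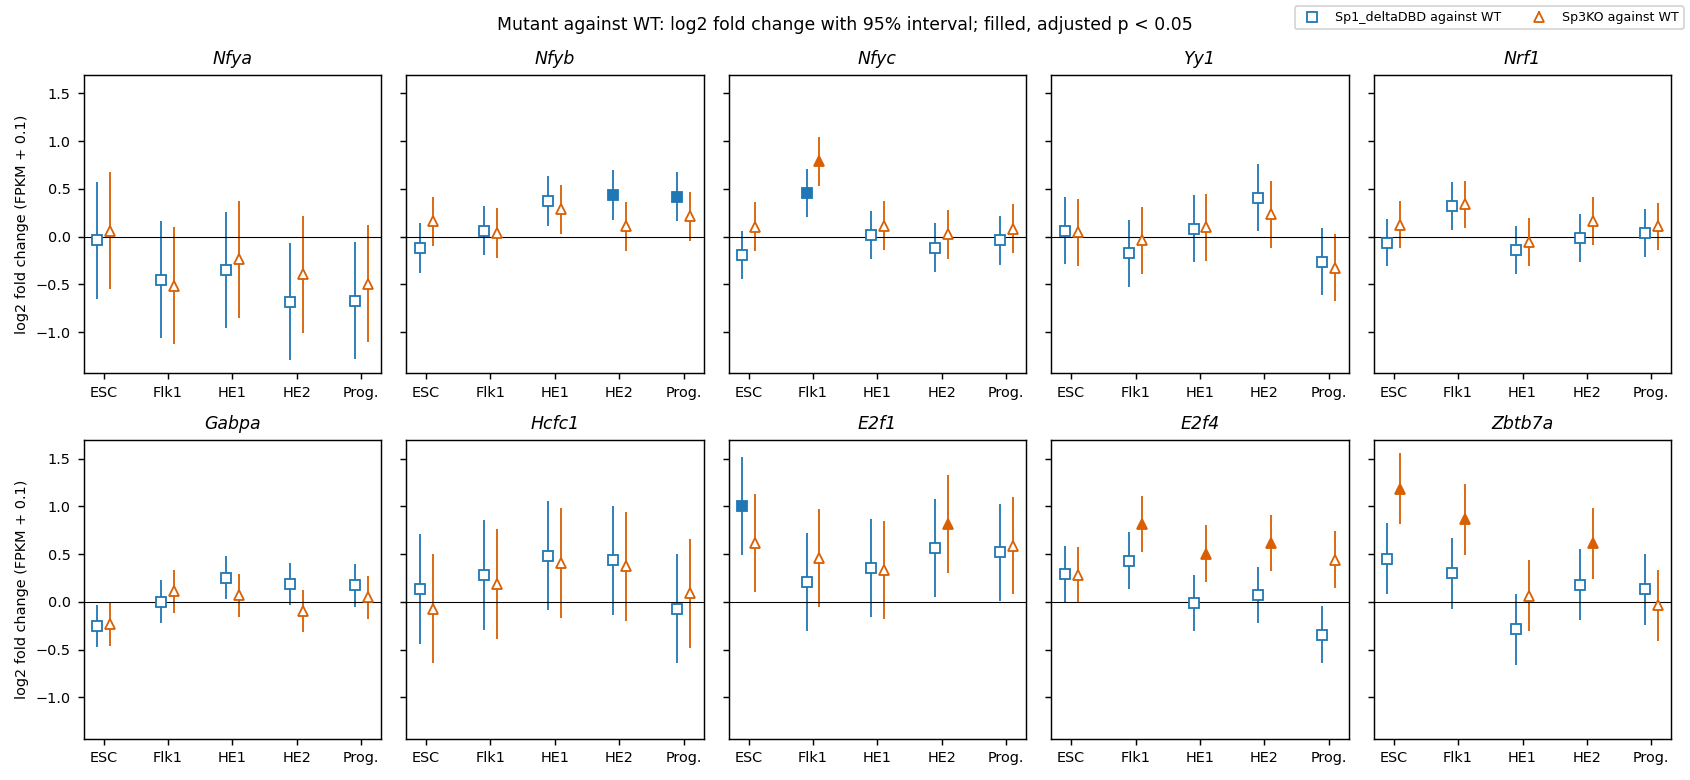
Log2 fold change against WT on the log2(FPKM + 0.1) scale (y axis) in 5 populations (x axis) for each of the 10 genes. Squares are Sp1ΔDBD/ΔDBD and triangles Sp3-/- cells, bars are 95% intervals from limma, and filled symbols have an adjusted p below 0.05. The 8 filled triangles, in Zbtb7a, E2f4, Nfyc and E2f1, and the 4 filled squares, in E2f1, Nfyc and Nfyb, are all above 0.

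In Sp1ΔDBD/ΔDBD cells 4 of 50 were called, all higher than WT, in 3 genes. This was 1 of 10 genes in ESC (6.06% of all genes tested), 1 in Flk1+ cells (5.54%), 0 in HE1 (10%; 2 of 10 at an unadjusted p below 0.05), 1 in HE2 (9.67%) and 1 in progenitors (8.78%). The pooled share of 8% was that of all genes (8.02%).

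E2f1 was higher in Sp1ΔDBD/ΔDBD ESC, with 9.66 and 9.20 FPKM against 3.36 and 6.45 in WT. The difference of 1.0 ± 0.24 (adjusted p = 0.0184) was lost without WT replicate 1, the lowest sample of this gene (0.54, adjusted p = 0.261), and without Sp1ΔDBD/ΔDBD replicate 1 (adjusted p = 0.103) or 2 (adjusted p = 0.0623). Nfyc was higher in Flk1+ cells, as in Sp3-/- cells compared with the same WT samples, with 27.8 and 24.2 FPKM and a log2 fold change of 0.46 ± 0.12 (adjusted p = 0.0311). It was lost without WT replicate 1 (0.103) or 2 (0.249) or Sp1ΔDBD/ΔDBD replicate 1 (0.255). Nfyb was higher in HE2 (20.5 and 17.7 against 15 and 13.1 FPKM) and progenitors (23.1 and 17.8 against 16.2 and 14.1 FPKM). Its log2 fold changes were 0.44 ± 0.12 (adjusted p = 0.0302) and 0.42 ± 0.12 (adjusted p = 0.0387).

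The Nfyb calls were close to the threshold. In HE2 the call was lost without WT replicate 2 (0.183) or Sp1ΔDBD/ΔDBD replicate 1 (0.164) and after the GC and length correction (0.0513). In progenitors it was lost without WT replicate 1 (0.0533) or 2 (0.232), Sp1ΔDBD/ΔDBD replicate 1 (0.355), Sp3-/- ESC replicate 1 (0.0522) or 2 (0.0523) or WT Flk1+ replicate 1 or 2 (0.0512 each), and after the correction (0.122), these values being adjusted p from limma. In HE1 Nfyb was 14.3 and 16 against 11.9 and 11.5 FPKM, a log2 fold change of 0.37 ± 0.12 that was not called (adjusted p = 0.0626). Differences between same-numbered replicates of WT and Sp1ΔDBD/ΔDBD correlated at 0.255 to 0.481 in the 5 populations, and a fit with a block for replicates within each population called this HE1 difference (adjusted p = 0.0318), as it was without Sp1ΔDBD/ΔDBD progenitor replicate 1 (0.0334) or 2 (0.0331). In HE2 the summed endothelial markers were 383 to 487 FPKM in Sp1ΔDBD/ΔDBD and 489 to 559 in WT samples, and in progenitors the fibroblast markers 1.18 to 3.15 and 14.6 to 42.7, and their part in the Nfyb results was not tested.

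The study used a fold change above 2. Taken here as the ratio of group means with 0.1 added, without a test and where the higher group averaged over 3 FPKM, 1 of the 10 genes passed in 1 of the 10 mutant comparisons, Zbtb7a in Sp3-/- ESC (7.10 against 3.07 FPKM, 2.27 times). Of all genes in the table, 2.87%, 3.08%, 4.26%, 4% and 3.89% passed in Sp1ΔDBD/ΔDBD and 3.70%, 4.43%, 4.86%, 4.41% and 4.22% in Sp3-/- cells, in the order ESC, Flk1+, HE1, HE2 and progenitors. Taken as the difference of mean log2 values instead, E2f1 in Sp1ΔDBD/ΔDBD ESC (3.03% of all genes) passed as well as Zbtb7a in Sp3-/- ESC (3.72%), the log2 fold change of E2f1 being at the limit.

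Since both mutants share their WT samples, they were also compared with each other. Of 50 differences 4 were called, all higher in Sp3-/- cells: Zbtb7a in ESC and E2f4 in HE1, HE2 and progenitors. This was 1 of 10 genes in ESC (9.67% of all genes tested), 0 in Flk1+ cells (7.39%; 3 of 10 at an unadjusted p below 0.05), and 1 each in HE1 (13.6%), HE2 (15.9%) and progenitors (11.6%). Zbtb7a in ESC was 7.15 and 7.05 FPKM in Sp3-/- and 4.11 and 4.36 FPKM in Sp1ΔDBD/ΔDBD samples, a log2 difference of 0.73 ± 0.18 (adjusted p = 0.0132). It was lost without Sp1ΔDBD/ΔDBD replicate 1 (0.0703) or Sp3-/- replicate 1 (0.103) or 2 (0.0790). In Flk1+ cells Zbtb7a was higher in Sp3-/- by 0.57 (adjusted p = 0.0583), a call without an intensity trend (0.0396) or without WT progenitor replicate 1 (0.0427) or 2 (0.0431) or Sp1ΔDBD/ΔDBD HE1 replicate 1 (0.0456) or 2 (0.0450). After the GC and length correction 6 of 50 were called (12%, against 9.81% of the tests on all genes), with Zbtb7a in ESC, E2f4 in progenitors, Nfyb in ESC (0.47), Gabpa in ESC and Flk1+ cells (0.29 and 0.42) and Nrf1 in HE2 (0.39).

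E2f4 differed between the mutants in HE1, HE2 and progenitors. The Sp1ΔDBD/ΔDBD samples had 40.5 and 41.2 FPKM in HE1, then 48.8 and 48.7 (HE2) and 38.6 and 54.5 (progenitors), within or below the WT range. Sp3-/- samples were above them by 0.52 ± 0.14 (adjusted p = 0.0198), 0.55 ± 0.14 (adjusted p = 0.0124) and 0.79 ± 0.14 (adjusted p = 0.00131). In ESC the 2 mutants differed by -0.01 (95% interval -0.31 to 0.28), and in Flk1+ cells by 0.38 (adjusted p = 0.110). The Flk1+ samples did not overlap either (105 and 94.0 against 77.2 and 75.1 FPKM), and that difference was called without Sp1ΔDBD/ΔDBD progenitor replicate 1 or 2 (0.0498 each). Whether the difference between the mutants changed from one population to another was not tested. The HE1 and HE2 calls were lost after the GC and length correction (0.29, adjusted p = 0.246, in both). In HE1 the call was lost without Sp1ΔDBD/ΔDBD replicate 1 (0.0684) or 2 (0.0947) or Sp3-/- replicate 1 (0.0973) or 2 (0.0989), and in HE2 without Sp1ΔDBD/ΔDBD replicate 2 (0.0716) or Sp3-/- replicate 1 (0.0730) or 2 (0.0626). The progenitor call held in each of the 30 fits without 1 sample. Without Sp1ΔDBD/ΔDBD progenitor replicate 2, E2f4 of Sp1ΔDBD/ΔDBD cells was called against WT in progenitors (-0.59, adjusted p = 0.0160, against -0.34 with it) and in Flk1+ cells (0.43, adjusted p = 0.0330). With only the 4 samples of a comparison in the limma fit, the E2f4 calls between the mutants were lost in HE1, HE2 and progenitors (adjusted p = 0.0899, 0.106 and 0.158). In progenitors the erythroid marker sum was 1455 to 3190 FPKM in Sp3-/-, 6962 to 9331 in Sp1ΔDBD/ΔDBD and 4027 to 13110 in WT samples, and its part in these results was not tested.

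Whether a mutation acts differently in a later population than in ESC was tested as a difference between the 2 mutant-against-WT differences. For Sp3-/- cells 2 of 40 were called, both for Zbtb7a, whose excess over WT was smaller by 1.12 ± 0.25 in HE1 (adjusted p = 0.0272; 2.16% of all genes called) and by 1.22 ± 0.25 in progenitors (adjusted p = 0.0236; 1.34% of all genes) than in ESC. None was called in Flk1+ cells (1.48% of all genes; 3 of 10 at an unadjusted p below 0.05) or HE2 (0.544%; 1 of 10). Nfyc in Flk1+ cells was the nearest, with a difference of 0.68 ± 0.17 (adjusted p = 0.0542), and was called after the GC and length correction (0.65, adjusted p = 0.0462), with the replicate block (0.0289) and in 5 of the 30 fits without 1 sample. For Sp1ΔDBD/ΔDBD cells 0 of 40 were called in limma (1.74%, 3.99%, 2.62% and 3.15% of all genes in Flk1+, HE1, HE2 and progenitor cells), and 3, 3, 2 and 3 of 10 genes had an unadjusted p below 0.05. With the replicate block 1 of 40 was called, Nfyc in Flk1+ cells (0.65, adjusted p = 0.0343, against 0.0643 without the block; 2.38% of all genes called).

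The Zbtb7a difference between ESC and HE1 was called in no fit without 1 of its 8 samples. The adjusted p was 0.0590 and 0.0684 without WT ESC replicate 1 and 2, 0.0943 and 0.0962 without Sp3-/- ESC replicate 1 and 2, 0.0762 and 0.0542 without WT HE1 replicate 1 and 2, and 0.0596 and 0.117 without Sp3-/- HE1 replicate 1 and 2. That between ESC and progenitors held without WT progenitor replicate 1. It was lost without WT ESC replicate 1 (0.0527) or 2 (0.0508), Sp3-/- ESC replicate 1 (0.0783) or 2 (0.0848), WT progenitor replicate 2 (0.0764) or Sp3-/- progenitor replicate 1 (0.0739) or 2 (0.0653). After the GC and length correction the values were -0.84 (adjusted p = 0.0753) and -0.98 (adjusted p = 0.0516).

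Nfya, Yy1, Nrf1, Gabpa and Hcfc1 were called in no mutant comparison of the uncorrected fit of all samples, and their spread differed. Nrf1 and Gabpa varied mostly with the population, which took 80.1% and 89.4% of the variance of their log2 values over the 30 samples, and genotype took 4.80% and 1.28%. Nrf1 in Flk1+ cells was 19.4 and 20.2 FPKM in WT, 23.3 and 26.2 in Sp1ΔDBD/ΔDBD and 25.2 and 24.8 in Sp3-/- samples, without overlap, and the differences of 0.32 (adjusted p = 0.133) and 0.34 (adjusted p = 0.0702) were not called. The Sp3-/- difference was called after the GC and length correction (0.46, adjusted p = 0.00784) and with only its 4 samples in the fit (adjusted p = 0.0343). Gabpa in Sp3-/- Flk1+ cells was higher than WT by 0.11 (adjusted p = 0.563) uncorrected and by 0.35 (adjusted p = 0.00315) after the correction. Gabpa in ESC was 31.2 and 34.0 in Sp1ΔDBD/ΔDBD and 33.1 and 32.8 in Sp3-/- against 38.1 and 39.5 FPKM in WT, differences of -0.25 (adjusted p = 0.198) and -0.24 (adjusted p = 0.175). For E2f1 genotype took the largest share of all 10 genes, 47.0%, followed by E2f4 (34.4%) and Zbtb7a (30.7%).

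Replicates took the largest part for Hcfc1 (48.4%), Nfya (43.0%) and Yy1 (39.5%). Hcfc1 was higher in replicate 2 than in replicate 1 of Sp1ΔDBD/ΔDBD cells in 5 of 5 populations, with 45.7 and 66.7 FPKM in HE1, then 50.5 and 80.9 (HE2) and 41.5 and 88.3 (progenitors). Over 10013 genes, the difference between these replicates (replicate 1 minus 2) had a Spearman's rho with transcript length of -0.314 to -0.490 in the 5 populations, and the Hcfc1 transcript is 8262 bases long. The part of length in the Hcfc1 difference was not tested. In HE1 Hcfc1 was higher than WT by 0.49 in Sp1ΔDBD/ΔDBD (adjusted p = 0.298) and 0.41 in Sp3-/- cells (adjusted p = 0.373), and both were called with the GC and length correction and the replicate block together (0.57, adjusted p = 0.0292, and 0.55, adjusted p = 0.0296). Nfya means were lower than WT in both mutants in Flk1+, HE1, HE2 and progenitor cells, with log2 fold changes of -0.24 to -0.68 and wide 95% intervals, such as -1.29 to -0.07 for Sp1ΔDBD/ΔDBD HE2. The WT Nfya samples of HE1 (13.2 and 7.36 FPKM), HE2 (15.5 and 11.1) and progenitors (18.1 and 11.4) stood apart, as did the Sp3-/- progenitor samples (8.19 and 12.7). Replicate 1 also had the higher muscle marker sum in each of these WT pairs (1662 and 354, 428 and 70.0, and 258 and 76.1 FPKM). Sp1ΔDBD/ΔDBD replicate 1 had the higher muscle sum in HE1 (980 and 248) and HE2 (363 and 35.7), but the lower Nfya (6.86 and 8.71, 7.25 and 9.18). In Sp1ΔDBD/ΔDBD progenitors it had the higher value of both (139 and 19.9, 9.76 and 8.33). In Sp3-/- cells the sample with more muscle signal had more Nfya in HE1 and progenitors, and less in HE2. The part of these sums in the Nfya differences was not tested. For Yy1 the log2 fold changes were between -0.33 and 0.41. Both of its progenitor differences became calls without WT progenitor replicate 2, -0.64 in Sp3-/- (adjusted p = 0.0334, against -0.33 with it) and -0.57 in Sp1ΔDBD/ΔDBD cells (adjusted p = 0.0473, against -0.26).

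The partners and targets of the factors were then examined. Of 23 listed partners of NF-Y, GABPA, YY1, HCFC1, NRF1 and ZBTB7A, 22 were tested and Ppargc1a was not analysed here. In Sp1ΔDBD/ΔDBD cells 0, 0, 2, 2 and 0 of 22 were called (ESC, Flk1+, HE1, HE2, progenitors), all higher, and in Sp3-/- cells 1, 0, 4, 1 and 1, of which 2 in HE1 were lower. Of all genes, 6.06%, 5.54%, 10%, 9.67% and 8.78% were called in Sp1ΔDBD/ΔDBD and 11.3%, 12.6%, 10.9%, 13.8% and 8.65% in Sp3-/- cells. The share of partners was above that of all genes in Sp3-/- HE1 only (18.2%). Sin3a, a corepressor scaffold, rose from 21.7 to 38.4 FPKM in Sp1ΔDBD/ΔDBD HE1 (0.81 ± 0.16, adjusted p = 0.00347). Thap11, an HCFC1-binding zinc finger factor, rose in Sp3-/- ESC, HE1, HE2 and progenitors by 0.24 to 0.31. Wdr5, a subunit of histone methyltransferase complexes, was higher in HE1 of both mutants (0.45 and 0.53), and Hcfc1r1, an HCFC1-binding protein, was lower in Sp3-/- HE1 (5.26 against 14.2 FPKM). At the WT step from Flk1+ cells to HE1 15 of the 22 were called, 12 of them lower (53.0% of all genes called), and 9 without Flk1+ replicate 2. The partner counts in HE1 and HE2 fell to between 0 and 3 in the fits without 1 of their samples, apart from 4 (2 higher, 2 lower) in Sp1ΔDBD/ΔDBD HE2 without mutant replicate 1.

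A list of E2F, DP and pocket protein genes was also examined (16 tested, E2f1 and E2f4 not included). Of these, 1, 2, 4, 3 and 2 were called in Sp1ΔDBD/ΔDBD cells and 1, 0, 4, 0 and 2 in Sp3-/- cells, all higher. In Sp1ΔDBD/ΔDBD cells these were 6.25%, 12.5%, 25%, 18.75% and 12.5%, beside 6.06%, 5.54%, 10%, 9.67% and 8.78% of all genes. In Sp3-/- cells they were 6.25%, 0%, 25%, 0% and 12.5%, beside 11.3%, 12.6%, 10.9%, 13.8% and 8.65%. The Sp3-/- shares were thus below those of all genes in ESC, Flk1+ cells and HE2. The list medians in HE1 were 0.42 and 0.22, beside 0.02 and 0.05 for all genes. Rbl1, which encodes the pocket protein p107 that binds E2F4, was higher in Sp1ΔDBD/ΔDBD cells in 5 of 5 populations, for example 12.2 against 5.35 FPKM in HE1 (1.18 ± 0.11, adjusted p = 1.63e-06) and 20.8 against 10.6 FPKM in progenitors (0.97 ± 0.11). It was also higher in Sp3-/- HE1 (10.8 FPKM) and progenitors (15 FPKM). E2f6, a repressor E2F, was higher in Sp1ΔDBD/ΔDBD Flk1+ cells, HE1 and HE2 (0.47, 0.64 and 0.52), Tfdp1, the DNA-binding partner of E2Fs, in HE1 of both mutants (0.50 and 0.38) and HE2 of Sp1ΔDBD/ΔDBD cells (0.42), and E2f2, an activator, in Sp3-/- ESC (6.5 and 5.86 FPKM against 0.374 and 4.0 in WT, whose replicates stood far apart). The HE1 counts of 4 fell to 1 without replicate 2 of the mutant in both comparisons, and in Sp3-/- HE1 to 2 without WT or mutant replicate 1 and to 1 higher and 1 lower without WT replicate 2. In Sp1ΔDBD/ΔDBD HE1 it fell to 2 without WT replicate 1, and in HE2 from 3 to 1 without either WT replicate. The 2 calls of Sp3-/- progenitors fell to 0 without WT replicate 1 or either mutant replicate and to 1 without WT replicate 2.

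Along WT differentiation 3 of these 16 were higher and 7 lower from ESC to Flk1+ cells (4 higher and 4 lower without ESC replicate 2, 3 higher and 4 lower without Flk1+ replicate 1), and 7 were lower from Flk1+ cells to HE1 (4 without Flk1+ replicate 1). Of all genes, 52.2% and 53.0% were called at these steps. Mybl2, which encodes B-MYB of the cell cycle, fell from 123 FPKM in ESC to 21.2 in Flk1+ cells (-2.53 ± 0.12, adjusted p = 5.52e-12) and to 10.3 in HE1. E2f5, which like E2f4 pairs with pocket proteins, rose from 15.5 to 34.9 FPKM and then fell to 10.7. Rbl1 fell by 1.0 at the step to HE1 and rose by 1.0 to HE2, and E2f6 rose from 9.69 to 19.2 FPKM from ESC to Flk1+ cells.

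E2F target genes of DNA replication and S phase (20 tested) had their lowest WT levels around HE1. From Flk1+ cells to HE1 15 of 20 were lower and 0 higher (median -0.83, all genes -0.08). At that step 53.0% of all 14525 genes were called, 4280 of them lower. From HE1 to HE2 15 of 20 were higher and 0 lower (median 0.65, all genes 0.05; 21.9% of all genes called). Of the NF-Y target genes of G2 and M phase (10 tested), 10 were lower at the first of these steps (53.0% of all genes called) and 6 higher at the next (21.9%). Of the factors themselves, E2f4 and Nfyb were called lower and Nfyc higher from Flk1+ cells to HE1, with the values given above. E2f1 and Nfya were not called at that step in the fit of all samples. From HE1 to HE2 none of the E2F and NF-Y genes among the 10 was called in that fit. Without WT HE1 replicate 1 the E2F target counts were 16 and 11, and those of NF-Y targets 9 and 3. Without WT HE1 replicate 2 the counts at the second step were 8 of 20 and 4 of 10, and without WT HE2 replicate 2 they were 11 and 3. With only the 4 samples of the 2 groups in the fit, 0 of either list were called from HE1 to HE2.

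Compared with WT, E2F targets were most often called in HE1. In Sp3-/- HE1 9 of 20 E2F targets were higher than in WT and 0 lower (median 0.46, all genes 0.05; 10.9% of all genes called), and all 20 had a positive log2 fold change. In HE2 6 of 20 were higher (13.8% of all genes called), and in ESC, Flk1+ cells and progenitors 1, 2 and 1 (11.3%, 12.6% and 8.65%). In Sp1ΔDBD/ΔDBD HE1 5 of 20 were higher (median 0.32, all genes 0.02; 10% of all genes called). In ESC, Flk1+ cells, HE2 and progenitors 1, 2, 2 and 3 of 20 were called in either direction. These were 5%, 10%, 10% and 15%, beside 6.06%, 5.54%, 9.67% and 8.78% of all genes. Cdt1, a licensing factor, was higher in Sp3-/- HE1 (54.9 against 27.4 FPKM, adjusted p = 0.00218) and HE2 (76.8 against 37.2 FPKM, adjusted p = 0.00132). Ccna2, cyclin A2, and Gins1, a subunit of the replicative helicase, were higher in HE1 of both mutants. Tk1, thymidine kinase, went the other way in Sp1ΔDBD/ΔDBD cells, lower in ESC, Flk1+ cells, HE2 and progenitors (31.4 against 69.3 FPKM, -1.14 ± 0.12, adjusted p = 1.20e-05). The Sp3-/- HE1 count was 7 and 5 without Sp3-/- replicate 1 and 2, and 7 and 8 without WT replicate 1 and 2, and the HE2 count was 2 and 1 without Sp3-/- replicate 1 and 2, and 1 and 4 without WT replicate 1 and 2. With only the 4 samples in the fit, both were 0. In Sp1ΔDBD/ΔDBD HE1 the count was 3 without mutant or WT replicate 2. The summed blood progenitor markers were 91.8 to 95.1 FPKM in Sp3-/- and 40.4 to 51.4 in WT HE1, the endothelial markers 699 to 701 and 756 to 1064, and the muscle markers 122 to 193 and 354 to 1662, and their part in the counts was not tested.

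NF-Y targets of G2 and M phase were higher in 6 of 10 cases in Sp3-/- HE1 (median 0.40, all genes 0.05; 10.9% of all genes called). In Sp3-/- HE2 3 of 10 were higher (13.8% of all genes called), and in Sp1ΔDBD/ΔDBD HE1 2 of 10 (10%). The other Sp1ΔDBD/ΔDBD counts were 1 (lower) in ESC (6.06% of all genes) and 0 in Flk1+ cells, HE2 and progenitors (5.54%, 9.67% and 8.78%). In Sp3-/- ESC, Flk1+ cells and progenitors they were 2, 1 and 0 (11.3%, 12.6% and 8.65% of all genes). Plk1, a mitotic kinase, was higher in Sp3-/- ESC, Flk1+ cells, HE1 and HE2 by 0.50 to 0.67, and Cdc20 and Bub1b, of the spindle checkpoint, in HE1 by 0.53 and 0.70. Top2a, topoisomerase II alpha, was lower in Sp3-/- ESC (215 against 419 FPKM). The HE1 count of 6 was 4 and 1 without Sp3-/- replicate 1 and 2 and 3 without either WT replicate, and the HE2 count of 3 was 1 without either Sp3-/- replicate. Both were 0 with only the 4 samples in the fit, and the 2 calls of Sp1ΔDBD/ΔDBD HE1 were lost without mutant replicate 2 or either WT replicate.

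**Figure D4:**
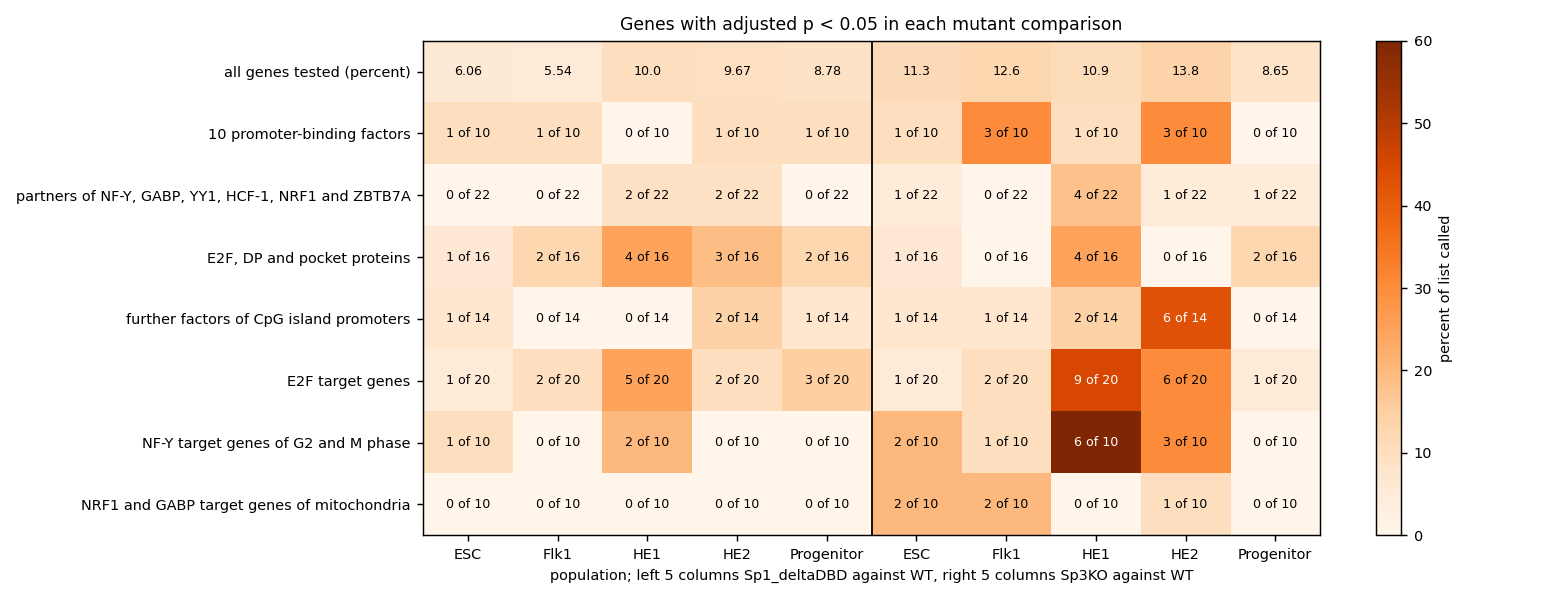
Genes with an adjusted p below 0.05 in each mutant comparison (columns) for each gene list (rows). Cells give the number called of the number tested, the top row gives the percentage of all genes, and colour gives the percentage called. The darkest cells are NF-Y and E2F target genes in Sp3-/- HE1, with 6 of 10 and 9 of 20.

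Genes of mitochondria that NRF1 and GABP are known to activate (10 tested) were called 0 times in Sp1ΔDBD/ΔDBD cells and 2, 2, 0, 1 and 0 times in Sp3-/- cells, and their medians lay between -0.14 and 0.09. The shares of all genes were 6.06%, 5.54%, 10%, 9.67% and 8.78%, and 11.3%, 12.6%, 10.9%, 13.8% and 8.65%. Polrmt, the mitochondrial RNA polymerase, was higher in Sp3-/- ESC (16.4 against 9.84 FPKM), Flk1+ cells and HE2, and Cox5b, a subunit of cytochrome oxidase, in ESC (150 against 95.1 FPKM). Tfb1m, a mitochondrial rRNA methyltransferase, was lower in Flk1+ cells (9.28 against 13.6 FPKM), and Cox6a1 was called in none of the 10. Of 14 further factors of CpG island promoters, 1, 0, 0, 2 and 1 were called in Sp1ΔDBD/ΔDBD cells, all higher, and 1, 1, 2, 6 and 0 in Sp3-/- cells. As shares these were 7.14%, 0%, 0%, 14.3% and 7.14%, and 7.14%, 7.14%, 14.3%, 42.9% and 0%, beside the shares of all genes just given. In Sp3-/- HE2, where the endothelial markers summed to 351 to 352 FPKM against 489 to 559 in WT, 4 were higher and 2 lower (13.8% of all genes called). Without Sp3-/- replicate 1 or WT replicate 1 that count was 1, and without Sp3-/- replicate 2 it was 0.

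Kdm2b and Cxxc1, which bind unmethylated CpG through CXXC domains, were higher in Sp3-/- HE2 (31.4 against 18.7 and 23.8 against 16.7 FPKM). The HE2 count of their list depended on single samples, as given above. Values corrected for GC content and gene length are not given here for these genes. Zfx, an X-linked zinc finger activator, was higher in Sp3-/- ESC (12 against 6.26 FPKM) and lower in HE1 (6.37 against 12.2) and HE2 (5.65 against 11.7). Elk1, an ETS factor, was higher in Sp1ΔDBD/ΔDBD HE2 (7.33 against 4.86 FPKM).

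As a description of pattern, each gene was correlated with the 10052 genes of a mean above 3 FPKM over the 15 group means, which share populations and genotypes. The highest Pearson's r were those of Gabpa with Hook1 (0.974), Zfp141 (0.973) and Cacybp (0.971), and of Nfyb with Atf7ip2 (0.968), Tmem231 (0.967) and Bbs2 (0.965). Nrf1 was closest to Tut1 (0.954), Surf6 (0.944) and Nolc1 (0.942), E2f4 to Rcc1 (0.950), Tbl3 (0.949) and Itfg2 (0.948), and Hcfc1 to Mtor (0.926), Fanca (0.926) and Ddx11 (0.921). Lower values were found for Nfyc with Eef1akmt1 (0.923), Bysl (0.895) and Spsb3 (0.892), for Zbtb7a with Bcl7b (0.892), Gpatch3 (0.890) and Adrm1 (0.883), and for Nfya with Dus1l (0.886), Mtif2 (0.869) and Ndufb4 (0.864). E2f1 was closest to Zfp526 (0.882), Tmub1 (0.874) and Akr7a5 (0.855), and Yy1 to Crebzf (0.861), Arhgap11a (0.822) and Ensa (0.790). No factor was among the 3 closest genes of another.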

How the data were processed

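RNA of 30 samples was sequenced after rRNA removal with a stranded kit. The authors trimmed the reads, aligned them to mm10 with HISAT2 2.1.0, quantified genes with StringTie 1.3.3 and deposited quantile-normalised FPKM of 14685 genes. The table holds no read counts, so the depth per sample is unknown, and quantile normalisation gives all samples nearly the same distribution. Here log2(FPKM + 0.1) of the 14525 genes above 1 FPKM in at least 1 sample was fitted with limma 3.58.1 (R 4.3.3) as 15 group means with an intensity trend, with two-sided tests and Benjamini-Hochberg adjustment within each comparison (threshold 0.05). A fold change on this scale understates that of low genes. The procedure was tested on simulated data. The 10 factors and the gene lists were chosen with earlier results of these data known. The factors are named throughout, with at most 4 genes a list (smallest adjusted p in any mutant comparison, and for E2F genes also over the WT steps) and 3 closest genes each. Alternatives were another pseudocount, filter, trend, sample set or replicate block, a GC content and gene length correction, and leaving out each sample. Coordinates are from GENCODE M21 (GRCm38).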

Additional observations from a re-analysis of the deposited data

Results flagged for a closer look

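The difference between Sp3-/- and WT Zbtb7a was itself different between populations by a test of that difference in limma. Relative to ESC, where Zbtb7a was 7.15 and 7.05 FPKM in Sp3-/- against 3.13 and 3.01 FPKM in WT samples, the log2 fold change was changed by -1.12 ± 0.25 in HE1 (adjusted p = 0.0272) and by -1.22 ± 0.25 in progenitors (adjusted p = 0.0236). Both calls were lost after the GC and length correction, and the cause was not tested.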

How the results depend on the processing

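Of 29 calls, 18 were lost in at least 1 alternative other than leaving out a sample, 19 were lost when 1 of the 30 samples was left out, and 0 changed sign. For Sp1ΔDBD/ΔDBD against WT the 4 calls became 2 with the GC and length correction, 2 without an intensity trend and 0 with only the groups compared in the fit, and 2 to 7 on leaving out 1 sample (2 without WT Flk1+ replicate 1 or 2, 7 without Sp1ΔDBD/ΔDBD progenitor replicate 2). For Sp3-/- against WT the 8 calls became 12 with the GC and length correction, 5 with only the groups compared, and 5 to 10 on leaving out 1 sample (5 without Sp3-/- HE2 replicate 1). The 11 calls between WT populations became 15 with the correction and 8 to 12 on leaving out 1 sample, and the 4 between the mutants 0 with only the groups compared and 3 to 6 on leaving out 1 sample. The 0 differences between populations in the effect of Sp1ΔDBD/ΔDBD became 0 to 2 on leaving out 1 sample, and the 2 of Sp3-/- (both Zbtb7a) were lost with the GC and length correction, which called 1 other, Nfyc in Flk1+ cells, became 0 with only the groups compared and 0 to 3 on leaving out 1 sample. The single gene past the fold of 2 became 0 with a pseudocount of 1, 2 on means of log2 values (a setting chosen after seeing the data), and 1 to 3 on leaving out 1 sample (3 without WT ESC replicate 2). Fits of 4 samples have few degrees of freedom. The cause of the other changes was not tested.

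The labels do not pair the replicates. Differences between same-numbered replicates correlated at 0.255 to 0.481 between WT and Sp1ΔDBD/ΔDBD, 0.00318 to 0.194 between WT and Sp3-/-, and -0.0834 to 0.182 between the mutants. With a replicate block within each population the counts were 5, 8, 13, 5, 1 and 3 in the order above, and the block changed no call of Sp1ΔDBD/ΔDBD against WT other than adding Nfyb in HE1. With the GC and length correction and the replicate block together the WT steps had 17 calls and the effects of both mutants between populations 1 each. Depth is unknown, and 2 samples a group limit what can be called.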
